A study of Homo sapiens with 12 samples.

Results

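The platelet-derived growth factor (PDGF) family in these data comprised 6 genes, chosen by their symbols among the 62703 genes of the count table: the ligand genes PDGFA, PDGFB, PDGFC and PDGFD and the receptor genes PDGFRA and PDGFRB. They were measured by RNA sequencing in H69, a line of normal human bile duct epithelial cells (cholangiocytes) that was immortalised with the large T antigen of SV40. The 12 libraries fell into 4 groups of 3: TGFβ + Aramchol, TGFβ, Aramchol and vehicle. Cells of every group had been starved of serum for 6 h and were then treated overnight without serum. TGFβ, a profibrotic cytokine, was given at 10 ng/mL, and Aramchol, a bile acid and fatty acid conjugate that inhibits the enzyme stearoyl-CoA desaturase, at 30 µM, a dose stated for the series as a whole. Nothing in the labels ties the replicates to separate cultures, and the p-values therefore speak only of the spread among these libraries, which may be technical.

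PDGF ligands are secreted as disulfide-linked dimers. The A and B chains are cut inside the cell by furin-like proteases, whereas the C and D chains leave the cell with a CUB domain that must be cut off by proteases outside it before they can bind. The receptor PDGFRα binds the A, B and C chains, and PDGFRβ binds the B and D chains; both are tyrosine kinases that are best known on mesenchymal cells. In the liver, PDGF-B is a strong signal for the growth and migration of hepatic stellate cells and portal fibroblasts, and bile duct epithelium is known as a source of it.

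Total counts per library were between 52279922 and 70339925, and 21567 genes had enough counts to be tested. Of the 6 genes, 5 passed this filter and PDGFD did not. The libraries numbered 3 stood apart from those numbered 1 and 2 in all 4 groups along a principal component, and along another Vehicle replicate 3 was closer to Aramchol than to the other vehicle libraries. All 10 cholangiocyte markers summed to 1938 to 2217 CPM (counts scaled to a common library size) with TGFβ + Aramchol, 2171 to 2403 with TGFβ, 1344 to 1716 with Aramchol and 1039 to 1854 with vehicle, and CFTR was under 0.1 CPM in every group. Of the 7 that were tested, 3 were higher with TGFβ than with vehicle and 3 lower (edgeR, adjusted p under 0.05), where 37.0% of all tested genes were called. The water channel gene AQP1 was higher by 4.39 on the log2 scale and the keratin genes KRT8 and KRT7 by 0.73 and 0.76, and the log2 change was -1.20 for the adhesion gene EPCAM, -0.84 for the transcription factor gene SOX9 and -0.57 for the keratin gene KRT19. The call of KRT7 was lost without TGFβ replicate 1 or 2, and that of KRT19 when replicate 1 or 2 of either group was omitted (edgeR adjusted p up to 0.110) and in DESeq2 (0.0532).

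TGFβ against vehicle, the comparison that shows the response to the cytokine alone, moved all 5 tested genes. The 3 ligand genes PDGFB, PDGFA and PDGFC and the receptor gene PDGFRB were higher with TGFβ, and the receptor gene PDGFRA was lower. This is 5 of 5 called (edgeR, adjusted p under 0.05 after Benjamini-Hochberg), where 37.0% of all tested genes were called. The genes were chosen with earlier results of these data known, so this count beside that share is not a test of the family.

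PDGFB (ENSG00000100311, chromosome 22, 39223359 to 39244982, minus strand, GRCh38) encodes the B chain, the ligand of both receptors. Its level was 236, 255 and 254 CPM in the TGFβ libraries, against 24.5, 22.2 and 17.2 CPM in the vehicle libraries. The groups lay far apart, and among the vehicle libraries replicate 3 was the lowest. The difference was 11.7-fold (95% confidence interval 9.97 to 13.7; log2 3.55, SE 0.11, edgeR adjusted p = 1.69e-12), the largest fold among the 5 genes in this comparison.

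PDGFA (ENSG00000197461, chromosome 7, 497258 to 520296, minus strand) encodes the A chain, which binds PDGFRα. It was measured at 18.9, 20.5 and 17.1 CPM with TGFβ, against 6.02, 5.80 and 5.16 CPM with vehicle. Every TGFβ library was above every vehicle library, by 3.33-fold in the fit (2.76 to 4.02; edgeR adjusted p = 2.52e-08). The library numbered 3 was the lowest of its group in all 4 groups. With a term for number 3 these libraries were lower by 0.27 on the log2 scale than those numbered 1 and 2 (edgeR adjusted p = 0.00579), and from the libraries numbered 1 and 2 alone the response to TGFβ was 1.74, the same log2 value to 2 decimals as from all libraries.

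PDGFC (ENSG00000145431, chromosome 4, 156760454 to 156971799, minus strand) encodes the C chain, a latent ligand of PDGFRα. The TGFβ libraries had 116, 116 and 125 CPM, against 66.2, 68.6 and 70.5 CPM in the vehicle libraries. The spread within each group was small beside the gap between them. The gene was 1.74-fold higher with TGFβ (1.60 to 1.89; edgeR adjusted p = 1.41e-08), the smallest rise among the ligand genes tested.

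PDGFD (ENSG00000170962, chromosome 11, 103907189 to 104164379, minus strand) encodes the D chain, a latent ligand of PDGFRβ. Over all 12 libraries 17 reads were counted to it. There were 6 in the TGFβ + Aramchol libraries, 3 in the TGFβ libraries, 3 in the Aramchol libraries and 5 in the vehicle libraries, with at most 4 in any library. A count of 3, taken as the floor, corresponds to 0.0410 to 0.0548 CPM, so the gene was at or under the floor in all libraries but Vehicle replicate 1. No fold change was computed, and a difference between groups was not detectable at this depth. Its gene model shares 193 exonic bases with DDI1, to which no read was counted.

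PDGFRB (ENSG00000113721, chromosome 5, 150113839 to 150155872, minus strand) encodes the receptor of the B and D chains. It had 185, 200 and 229 CPM in the TGFβ libraries, against 50.8, 47.9 and 44.3 CPM in the vehicle libraries. The lowest TGFβ library was well above the highest vehicle library. The difference was 4.29-fold (3.76 to 4.90; log2 2.10, SE 0.09, edgeR adjusted p = 6.12e-11), and it was 1.96 on the log2 scale from the libraries numbered 1 and 2 alone.

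PDGFRA (ENSG00000134853, chromosome 4, 54229280 to 54298245, plus strand) encodes the receptor of the A, B and C chains. It was measured at 5.76, 6.23 and 7.94 CPM with TGFβ, against 8.08, 10.1 and 11.7 CPM with vehicle. The highest TGFβ library was just below the lowest vehicle library, and replicate 3 was the highest of both groups. The gene fell by 0.59 on the log2 scale (SE 0.15, 1.50-fold lower, edgeR adjusted p = 0.00617), with an adjusted p of up to 0.0383 when any library was left out. The libraries numbered 3 were higher by 0.30 on the log2 scale over the 4 groups (edgeR adjusted p = 0.0161), and from those numbered 1 and 2 alone the fall was -0.60. Its gene model shares 1533 exonic bases with an unnamed gene on the same strand, ENSG00000282278, to which no read was counted. Whether reads in the shared bases were counted to PDGFRA was not tested, and its level per kb uses the full length of 9547 bases.

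**Figure D1:**
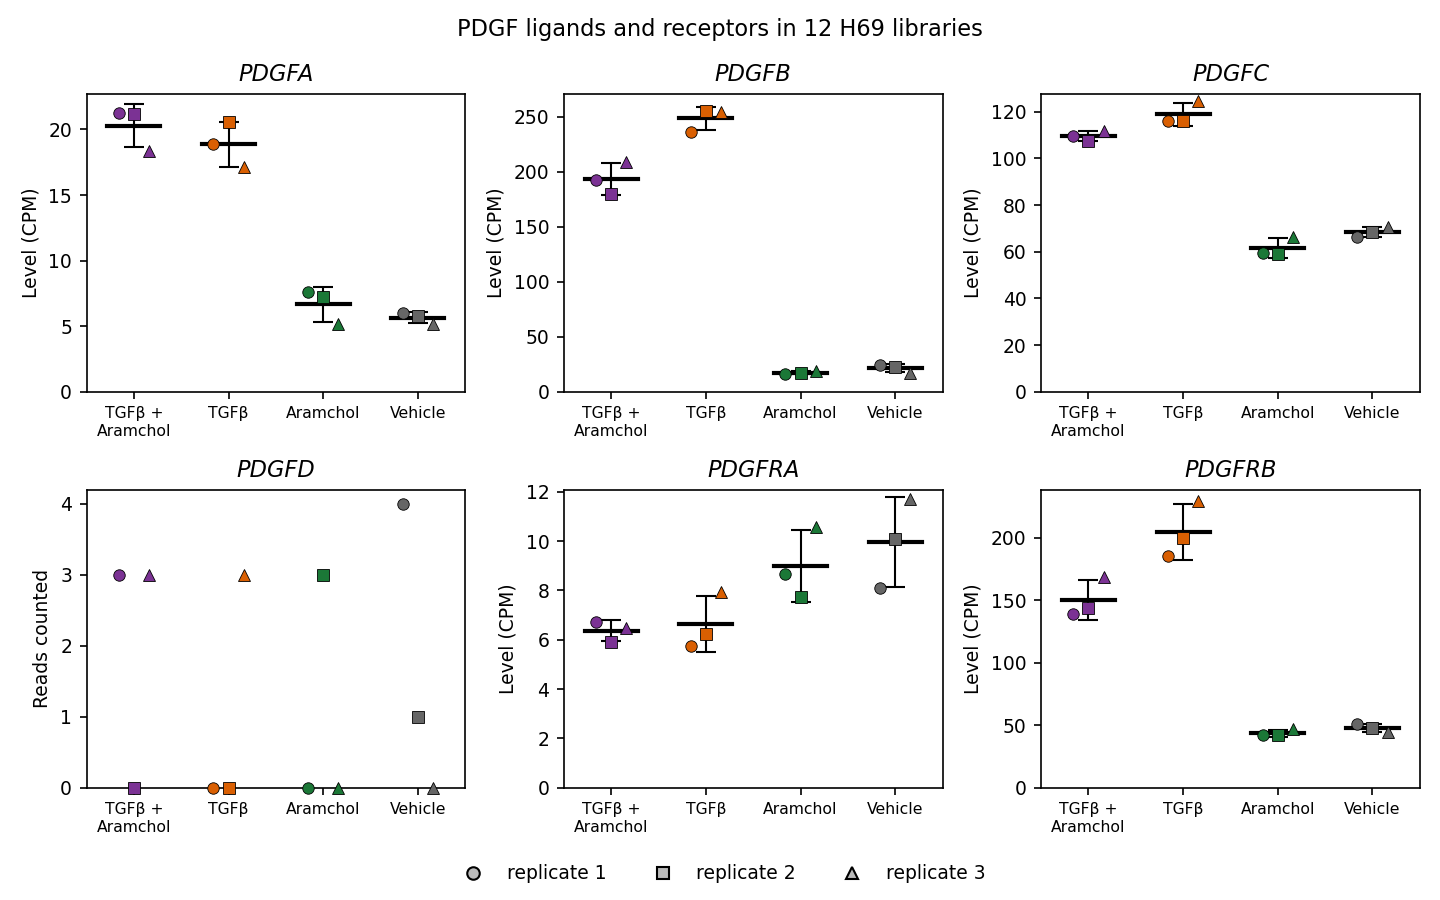
Levels of the 6 genes in each library, in CPM (reads counted for PDGFD), by group from left to right: TGFβ + Aramchol, TGFβ, Aramchol, vehicle. Points are libraries with the replicate number as the symbol, the bar is the group mean and the whiskers are ± 1 SD (n = 3; none for PDGFD). The libraries with TGFβ are above those without for PDGFA, PDGFB, PDGFC and PDGFRB, the TGFβ libraries are at most at 7.94 CPM for PDGFRA against at least 8.08 with vehicle, and PDGFD has at most 4 reads in a library.

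Markers of mesenchymal cells were measured beside these genes, because PDGFRB and PDGFRA are known from such cells. The 9 fibroblast and stellate cell markers summed to 3241 to 4579 CPM with TGFβ + Aramchol, 4497 to 6003 with TGFβ, 1118 to 1337 with Aramchol and 1046 to 1271 with vehicle. At 1 CPM or more were 6, 6, 4 and 5 of the 9 in these groups, and COL3A1 and RELN were under 0.1 CPM in every group. COL1A1, the α1 chain of type I collagen, made up most of the sum, with means of 3472 CPM with TGFβ + Aramchol, 4752 with TGFβ, 1083 with Aramchol and 1058 with vehicle. Of the 7 tested fibroblast and stellate cell markers, 5 were higher with TGFβ than with vehicle, and LRAT, the vitamin A-storing enzyme of stellate cells, was lower (log2 -1.42, edgeR adjusted p = 0.000816). In that comparison 37.0% of all tested genes were called. The 9 pericyte and smooth muscle markers summed to 544 to 578 CPM with TGFβ + Aramchol, 564 to 624 with TGFβ, 484 to 544 with Aramchol and 397 to 479 with vehicle, and the pericyte genes ABCC9 and KCNJ8 were under 0.1 CPM in every group. MCAM, at 341 to 418 CPM in the group means, and CSPG4, at 72.9 to 131 CPM, made up most of this sum. With TGFβ against vehicle the 7 tested markers had 3 calls higher, at log2 changes of 1.00 for NOTCH3, 0.80 for CSPG4 and 0.23 for MCAM, and 1 lower, RGS5 at -0.35 (edgeR adjusted p = 0.0458). These calls, too, stand beside 37.0% called among all tested genes. The call of MCAM was lost under upper quartile scaling and without TGFβ replicate 1, 2 or 3 or Vehicle replicate 3, and that of RGS5 without any of 10 of the 12 libraries, all but TGFβ replicate 1 and Vehicle replicate 3 (edgeR adjusted p up to 0.181). RGS5 also lost its call under RLE scaling, without a filter on low counts and in DESeq2. The same held from the libraries numbered 1 and 2 alone and from only the groups compared. The part of such cells in the PDGF results was not tested, and in bulk RNA more cells of a type and more RNA per cell cannot be told apart. Leukocyte markers (PTPRC, CD68 and CD3E) summed to at most 0.198 CPM, and of the 4 platelet markers PF4, PPBP and GP9 were under 0.1 CPM in every group while ITGA2B averaged 1.93 to 2.58 CPM.

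RefSeq promoter sequences of build GRCh38.p14 were matched by symbol for PDGFA, PDGFD, PDGFRA and PDGFRB, 4 of the 6 genes, taking the start site nearest to that of the count table. The stretches upstream of the start sites are shown for PDGFA and PDGFRB, which were higher with TGFβ, and for PDGFRA, which was lower, cut to the bases outside each gene's own model in the count table. They are chr7:520297-520476 (minus strand, 180 bases), chr5:150155873-150156095 (minus strand, 223 bases) and chr4:54229043-54229279 (plus strand, 237 bases). Capitals mark matches to 4 short motifs searched on both strands: the SMAD box CAGAC (reverse GTCTG), the GC box GGGCGG (reverse CCGCCC), the EGR site GCGGGGGCG and the AP-1 site TGANTCA.
PDGFA: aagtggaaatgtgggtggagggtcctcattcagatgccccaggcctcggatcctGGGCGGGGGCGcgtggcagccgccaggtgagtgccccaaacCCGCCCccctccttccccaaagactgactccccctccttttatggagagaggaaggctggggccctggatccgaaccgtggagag
PDGFRB: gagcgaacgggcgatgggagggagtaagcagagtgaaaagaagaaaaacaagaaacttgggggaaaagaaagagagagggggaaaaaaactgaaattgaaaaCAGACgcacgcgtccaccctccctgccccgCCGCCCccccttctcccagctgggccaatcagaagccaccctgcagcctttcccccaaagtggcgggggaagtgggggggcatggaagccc
PDGFRA: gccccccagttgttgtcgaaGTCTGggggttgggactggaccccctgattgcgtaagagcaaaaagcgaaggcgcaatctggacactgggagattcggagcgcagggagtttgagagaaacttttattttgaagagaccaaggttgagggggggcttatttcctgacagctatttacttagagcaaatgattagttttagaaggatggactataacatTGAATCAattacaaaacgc
In the 250 bases before its start site, PDGFA held 4 GC boxes and 2 EGR sites, which overlap GC boxes, and no SMAD box; 2 of these GC boxes and 1 of the EGR sites are in the stretch shown. PDGFRB held 1 SMAD box and 1 GC box, and PDGFRA held 1 SMAD box and 1 AP-1 site. Of 35116 RefSeq promoter windows of 250 bases, 38.0% held a SMAD box, 42.6% a GC box, 4.72% an EGR site and 6.57% an AP-1 site. These matches describe the letters and are not measured binding sites.

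TGFβ was also compared in the presence of Aramchol. In TGFβ + Aramchol against Aramchol, 5 of 5 tested genes were again called, with 30.2% of all tested genes called. Each had the sign it had in TGFβ against vehicle. The groups compared share no library, but all 12 libraries were in 1 fit with 1 shared estimate of the spread. The tests are therefore not independent. PDGFB was measured at 192, 180 and 208 CPM with TGFβ + Aramchol, against 15.9, 17.4 and 18.5 CPM with Aramchol. It was 11.2-fold higher (9.56 to 13.1; edgeR adjusted p = 3.96e-12). PDGFRB had 139, 143 and 168 CPM with TGFβ + Aramchol, against 41.8, 42.5 and 47.0 CPM with Aramchol. Neither gene's groups came near each other, and PDGFRB was 3.43-fold higher (3.01 to 3.91; edgeR adjusted p = 5.00e-10). PDGFA had 21.2, 21.2 and 18.4 CPM with TGFβ + Aramchol, against 7.60, 7.21 and 5.16 CPM with Aramchol, a 3.05-fold rise (edgeR adjusted p = 7.37e-08). PDGFC had 110, 108 and 112 CPM, against 59.6, 58.8 and 66.4 CPM with Aramchol, a 1.78-fold rise (edgeR adjusted p = 1.24e-08). For these ligand genes, too, the libraries with TGFβ were above all those without. PDGFRA had 6.73, 5.92 and 6.46 CPM with TGFβ + Aramchol, against 8.66, 7.75 and 10.6 CPM with Aramchol, and fell by 0.50 on the log2 scale (edgeR adjusted p = 0.0208). That call was lost without Aramchol replicate 3 (adjusted p = 0.108) or TGFβ + Aramchol replicate 2 (adjusted p = 0.0786).

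Against vehicle, the 3 libraries with both agents gave 5 of 5 calls as well, where 35.2% of all tested genes were called. The log2 fold changes were 3.18 for PDGFB, 1.84 for PDGFA, 1.66 for PDGFRB, 0.68 for PDGFC and -0.64 for PDGFRA, with edgeR adjusted p-values of at most 0.00350, the value for PDGFRA. This comparison shares its vehicle libraries with TGFβ against vehicle.

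TGFβ + Aramchol against TGFβ asks what Aramchol changes in cells that receive the cytokine. PDGFRB was lower with Aramchol, PDGFB missed the threshold, and no other tested gene of the family was called: 1 of 5, where 2.25% of all tested genes were called. PDGFRB averaged 150 ± 15.8 CPM with TGFβ + Aramchol and 205 ± 22.4 CPM with TGFβ (SD, n = 3 each), and its highest library with both agents, at 168 CPM, was below the lowest with TGFβ alone, at 185 CPM. It fell by 0.45 on the log2 scale (95% confidence interval -0.63 to -0.27, 1.36-fold lower, edgeR adjusted p = 0.0164). The call was lost without TGFβ replicate 2 (adjusted p = 0.0587) or 3 (0.0835), or without TGFβ + Aramchol replicate 1 (0.0925) or 2 (0.0725), while the log2 change stayed between -0.54 and -0.36.

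PDGFB averaged 193 ± 14.3 CPM with TGFβ + Aramchol and 248 ± 10.4 CPM with TGFβ (SD, n = 3 each). Its groups did not overlap either, with 208 CPM as the highest library with both agents and 236 CPM as the lowest with TGFβ. The log2 change of -0.36 (-0.56 to -0.16) had an edgeR adjusted p of 0.0637, which misses the threshold. It passed under 7 of the 9 other ways of fitting. The edgeR adjusted p was 0.0144 with a term for the libraries numbered 3 and 0.0246 with a replicate block. The adjusted p was 0.0103 in DESeq2 and, in edgeR, 0.00426 from the 6 libraries of these groups alone. With 1 library left out PDGFB passed in 2 of 12 cases, without Vehicle replicate 1 (0.0360) or 3 (0.00317). In the others the adjusted p was up to 0.198.

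For the other 3 tested genes the interval of the difference between TGFβ + Aramchol and TGFβ included 0. PDGFC averaged 110 ± 2.10 CPM with TGFβ + Aramchol and 119 ± 4.86 CPM with TGFβ (SD, n = 3 each), groups that did not overlap, with a log2 change of -0.12 (-0.23 to 0.00; edgeR adjusted p = 0.295). PDGFA had a log2 change of 0.10 (-0.15 to 0.36; adjusted p = 0.726) and PDGFRA one of -0.06 (-0.39 to 0.27; adjusted p = 0.898), and their groups overlapped. These intervals leave room for changes of either sign in PDGFA and PDGFRA.

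Aramchol against vehicle tested the compound without the cytokine, and 0 of the 5 genes were called in edgeR, where 0.357% of all tested genes were called. DESeq2 also called 0 of them, where it called 396 over all genes. The share of all genes with an unadjusted p under 0.05 in edgeR is not given here, and 2 of the 5 genes were under it. They were PDGFB, at 17.3 ± 1.33 CPM with Aramchol and 21.3 ± 3.73 CPM with vehicle (SD, n = 3 each; log2 -0.30, edgeR adjusted p = 0.265), and PDGFC, at 61.6 ± 4.15 CPM with Aramchol and 68.4 ± 2.19 CPM with vehicle (log2 -0.15, edgeR adjusted p = 0.304). All 5 genes had overlapping groups. Vehicle replicate 3 bears on this comparison: without it PDGFB was lower by -0.43 on the log2 scale with an edgeR adjusted p of 0.00649. From the libraries numbered 1 and 2 alone 4 genes were called, PDGFB (-0.48), PDGFRB (-0.23) and PDGFC (-0.19) lower and PDGFA (0.32) higher; over all genes 1544 were called from these 8 libraries, against 77 from all 12.

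The interaction, which tests whether Aramchol changed the log2 response to TGFβ, was called for 0 of the 5 genes in edgeR and in DESeq2, where edgeR called 0.0139% of all tested genes. The share of all genes with an unadjusted p under 0.05 in edgeR is not given here, and of the 5 genes 1 was under it. It was PDGFRB, whose log2 response to TGFβ was 1.78 with Aramchol and 2.10 without, a difference of -0.32 (95% confidence interval -0.58 to -0.06, edgeR adjusted p = 0.898). For PDGFB the difference in response was -0.06 (-0.36 to 0.24), with log2 responses of 3.49 with Aramchol and 3.55 without. The lower PDGFRB level with Aramchol in TGFβ-treated cells was therefore not shown to differ from its change in cells without TGFβ.

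**Figure D2:**
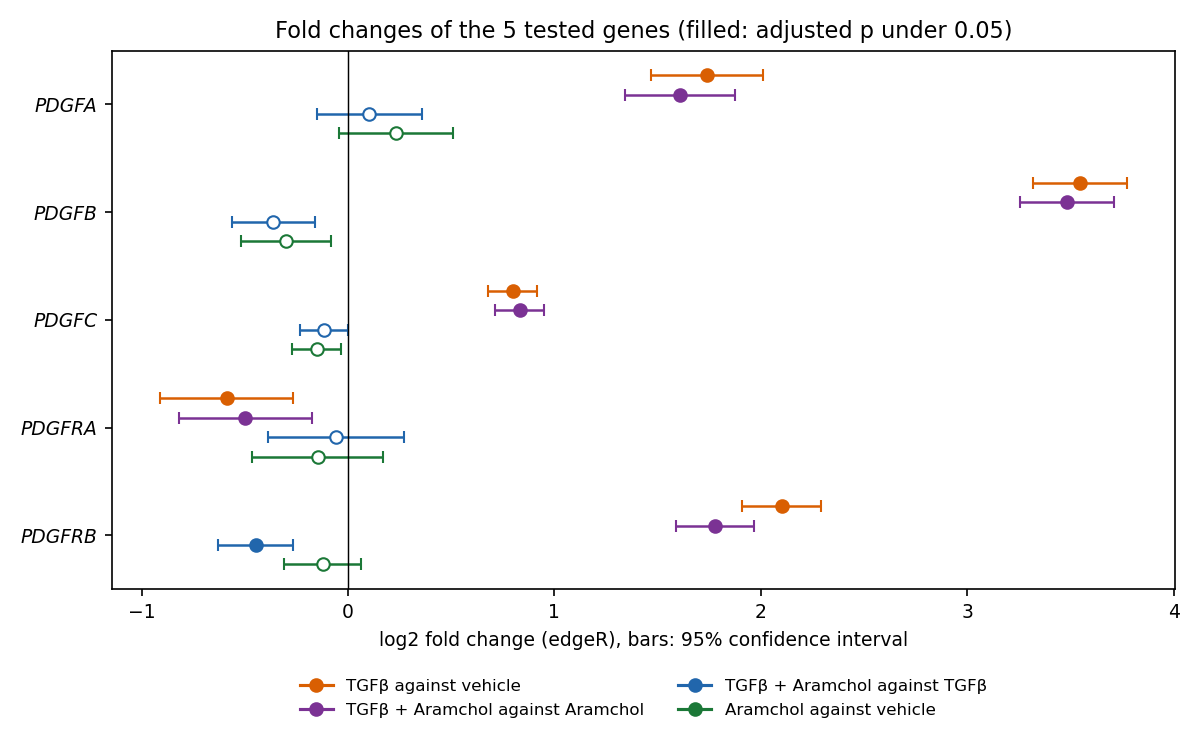
Log2 fold changes of the 5 tested genes from edgeR in 4 comparisons, with 95% confidence intervals as bars. Filled points have an adjusted p under 0.05. The responses to TGFβ run from -0.59 for PDGFRA to 3.55 for PDGFB without Aramchol and from -0.50 to 3.49 with it, and of the effects of Aramchol only that on PDGFRB in TGFβ-treated cells (-0.45) is filled.

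Levels were compared between genes only after division by gene length (CPM per kb). With TGFβ, with or without Aramchol, the order from high to low was PDGFB, PDGFRB, PDGFC, PDGFA, PDGFRA, PDGFD. With TGFβ + Aramchol, PDGFB was at 48.5 ± 3.58, PDGFRB at 21.0 ± 2.21, PDGFC at 18.3 ± 0.350, PDGFA at 4.42 ± 0.356 and PDGFRA at 0.667 ± 0.0435 CPM per kb. With TGFβ alone they were at 62.2 ± 2.61, 28.7 ± 3.14, 19.8 ± 0.809, 4.11 ± 0.373 and 0.696 ± 0.120 CPM per kb in the same order of genes. Without TGFβ the order began with PDGFC and PDGFRB, followed by PDGFB. With Aramchol, PDGFC was at 10.3 ± 0.691, PDGFRB at 6.13 ± 0.396, PDGFB at 4.32 ± 0.332, PDGFA at 1.45 ± 0.285 and PDGFRA at 0.943 ± 0.152 CPM per kb. With vehicle they were at 11.4 ± 0.366, 6.68 ± 0.456, 5.34 ± 0.935, 1.23 ± 0.0967 and 1.04 ± 0.190 CPM per kb in that order of genes (SD, n = 3 in each group). The libraries of neighbours in these orders did not overlap, with the exception of PDGFA and PDGFRA in the vehicle group.

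The make-up of the ligand transcripts followed from these levels. PDGFB took 68.0 ± 1.57% of the summed ligand level per kb with TGFβ + Aramchol, 72.2 ± 0.623% with TGFβ, 26.9 ± 1.21% with Aramchol and 29.6 ± 4.14% with vehicle (SD, n = 3 each). PDGFC took 25.7 ± 0.814% with TGFβ + Aramchol, 23.0 ± 0.829% with TGFβ, 64.0 ± 1.77% with Aramchol and 63.5 ± 4.45% with vehicle. PDGFA took 6.23 ± 0.778% with TGFβ + Aramchol, 4.77 ± 0.473% with TGFβ, 9.10 ± 2.12% with Aramchol and 6.85 ± 0.280% with vehicle. The B chain thus held the largest share in every library with TGFβ and the C chain in every library without it. The shares of PDGFB and PDGFC did not overlap between TGFβ and vehicle, nor between TGFβ + Aramchol and TGFβ, and each of these differences had an exact two-sided permutation p of 0.1, the smallest that 3 libraries against 3 allow.

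**Figure D3:**
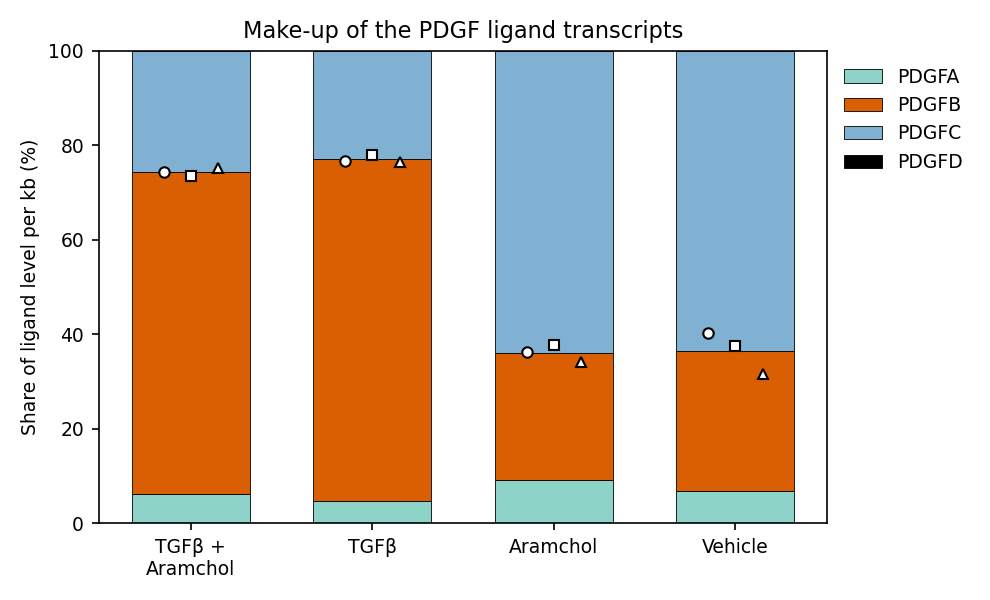
Mean share of each ligand gene in the summed ligand level per kb, in percent, for the 4 groups (n = 3 libraries each). White symbols give the summed share of PDGFA and PDGFB in each library, so that the spread around the boundary to PDGFC can be seen. PDGFB fills 68.0% and 72.2% of the bar with TGFβ + Aramchol and with TGFβ, and 26.9% and 29.6% with Aramchol and with vehicle; PDGFD is too low to be visible.

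The summed ligand level per kb was 71.2 ± 3.62 CPM per kb with TGFβ + Aramchol, 86.2 ± 2.99 with TGFβ, 16.0 ± 0.678 with Aramchol and 18.0 ± 0.694 with vehicle (SD, n = 3 each). The ratio of PDGFRB to PDGFRA per kb was 31.6 ± 3.67 with TGFβ + Aramchol, 41.5 ± 2.53 with TGFβ, 6.58 ± 0.700 with Aramchol and 6.61 ± 1.69 with vehicle. Its highest library with TGFβ + Aramchol (34.8) was below its lowest with TGFβ alone (38.6), and the groups without TGFβ overlapped.

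The genomic neighbours of the family, the nearest named genes on either side with at least 1 CPM in 1 group, were read from the coordinates of the table. CSF1R, which encodes the receptor of the macrophage growth factor CSF-1 and belongs to the same receptor class, lies 466 bases downstream of PDGFRB on the same strand (chromosome 5, 150053291 to 150113372). It had 14.3, 13.8 and 15.6 CPM with TGFβ + Aramchol, 19.5, 21.2 and 22.3 with TGFβ, 1.08, 0.916 and 0.684 with Aramchol and 0.745, 0.642 and 0.547 with vehicle. It was 32.5-fold higher with TGFβ than with vehicle (log2 5.02, SE 0.14, edgeR adjusted p = 1.52e-12), a larger fold than that of PDGFRB. With TGFβ + Aramchol it was lower than with TGFβ by -0.53 on the log2 scale (edgeR adjusted p = 0.0219), a call that was lost without TGFβ replicate 1, 2 or 3 or TGFβ + Aramchol replicate 1 or 2, with an adjusted p of up to 0.113. The reads counted to CSF1R came to 9.72 ± 0.523% of those counted to PDGFRB with TGFβ + Aramchol, 10.3 ± 0.483% with TGFβ, 2.06 ± 0.567% with Aramchol and 1.35 ± 0.116% with vehicle (SD, n = 3 each). Whether reads from transcripts that run on past the end of PDGFRB are among those of CSF1R was not tested.

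**Figure D4:**
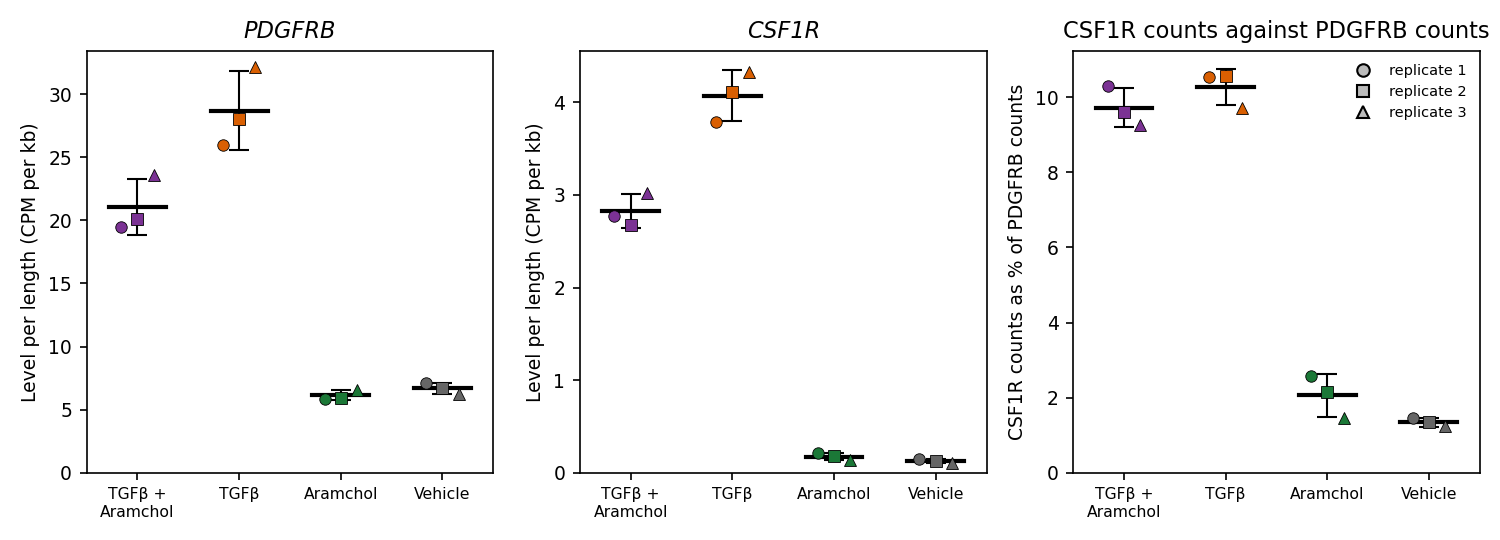
PDGFRB and its downstream neighbour CSF1R in each library, as CPM per kb, and the reads counted to CSF1R as a percentage of those counted to PDGFRB. Points are libraries, bars and whiskers the mean ± 1 SD (n = 3), with groups from left to right TGFβ + Aramchol, TGFβ, Aramchol and vehicle. Both genes are higher in the libraries with TGFβ, and the percentage is 9.27 to 10.6 with TGFβ and 1.23 to 2.58 without.

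At PDGFA, the divergent noncoding gene PDGFA-DT starts 94 bases from the upstream end of the gene on the opposite strand, within the promoter stretch shown for PDGFA. It averaged between 1.42 and 2.96 CPM in the 4 groups and was higher with TGFβ than with vehicle (log2 0.60, edgeR adjusted p = 0.00552) and with both agents than with vehicle (1.05, adjusted p = 4.22e-05). CAMK2A, a kinase gene 63618 bases upstream of PDGFRB, was higher with TGFβ than with vehicle (log2 2.04, edgeR adjusted p = 1.46e-06). Beside PDGFRA on chromosome 4 lie the related receptor genes KIT, with at most 3 reads in any library, and KDR. KDR had a log2 change of 0.22 in TGFβ against vehicle with an edgeR adjusted p of 0.634, and its libraries numbered 3 were lower by 0.84 on the log2 scale (adjusted p = 8.55e-05).

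Other neighbours were lower with TGFβ than with vehicle or were not called. On both sides of PDGFC the log2 change was -0.89, for the protease gene CTSO (edgeR adjusted p = 0.000577) and for the glycine receptor gene GLRB (adjusted p = 7.92e-06). CASP4, an inflammatory caspase gene beside PDGFD, had a log2 change of -0.65 (edgeR adjusted p = 9.20e-07), and FAM20C, a secretory pathway kinase gene beside PDGFA, one of -0.35 (adjusted p = 0.0155). The call of FAM20C was lost without TGFβ replicate 1 or Vehicle replicate 1 or 2 (edgeR adjusted p up to 0.0945). Not called were CBX7 (-0.20) and RPL3 (0.15) beside PDGFB, DYNC2H1 (0.04) beside PDGFD and CHIC2 (0.21) beside PDGFRA.

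The genes whose log2 CPM followed each member most closely over the 12 libraries were listed among 13634 genes with a mean of at least 1 CPM. For PDGFB these were the serotonin receptor gene HTR1D, PHLDB1 and the nucleoside transporter gene SLC29A1, each with Pearson's r of 1.00 to 2 decimals. PDGFRB was followed by the transcription factor gene FOXP4, the TGFβ-induced matrix gene TGFBI and the collagen gene COL27A1, also at 1.00. PDGFA was followed by the prion protein gene PRNP, NETO2 and CLDN14-AS1 (0.99 to 1.00), and PDGFC by the citrate transporter gene SLC13A5, the ephrin gene EFNA1 and the transcription factor gene FOXD1 (0.99 to 1.00). PDGFRA was followed less closely, by FBXO25, CNIH1 and MMUT (0.95 to 0.97). The libraries fall into clusters with and without TGFβ, so these values mainly describe a shared difference between those clusters and are given without a test.

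Genes that act with the PDGF family were read from 6 lists of 76 genes, of which 69 were tested. The lists, too, were chosen with earlier results of these data known. In TGFβ against vehicle 26 were higher and 17 lower, where 37.0% of all tested genes were called in either direction and the median log2 change of all tested genes was -0.03. Of the 10 tested genes that activate or bind PDGF chains, 6 were higher and 2 lower, with a median of 0.84. FURIN, a protease that cuts PDGF precursors, averaged 428 ± 13.2 CPM with TGFβ and 141 ± 3.85 CPM with vehicle (SD, n = 3 each; log2 1.60, edgeR adjusted p = 2.74e-12). PLAU, the urokinase that can cut the D chain, averaged 931 ± 55.5 CPM with TGFβ and 113 ± 26.8 CPM with vehicle (log2 3.04, edgeR adjusted p = 3.29e-10). PLAT, which encodes tissue plasminogen activator and cuts the C chain, was higher by 1.26, SPARC, a matrix protein that binds PDGF-B, by 1.77, and the co-receptor gene LRP1 by 1.18 on the log2 scale. ST14, which encodes the protease matriptase, rose by 0.49, a call lost without TGFβ replicate 1 or 2 or Vehicle replicate 3 (edgeR adjusted p up to 0.108). PCSK6 fell by 0.80, a call lost from the libraries numbered 1 and 2 alone (adjusted p = 0.0555), and NRP1 by 0.27, lost without TGFβ replicate 3 or Vehicle replicate 1 or 2 (adjusted p up to 0.0709).

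Of the 30 genes that carry the signal from the receptors, 9 were higher and 7 lower with TGFβ than with vehicle, with a median of 0.02. The kinase gene SRC rose by 1.06, and the adaptor genes NCK2 and SHC1 by 0.81 and 0.41 on the log2 scale. Of the 11 genes that restrain receptor signals, 4 were higher and 4 lower, with a median of -0.02. SOCS3, an inhibitor of cytokine signals, fell by 1.40, and the phosphatase gene PTPRJ rose by 0.65. Both lists thus had calls in both directions, beside 37.0% called among all tested genes, and medians near that of all genes.

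The VEGF family is the nearest relative of the PDGF ligands, and 4 of its 6 tested genes were higher with TGFβ than with vehicle and none lower, beside the same 37.0%. Those 4 are ligand genes, and the receptor genes KDR and FLT4 were tested and not called. VEGFA rose by 2.40, VEGFC by 1.99 and PGF by 1.58 on the log2 scale (edgeR adjusted p = 8.43e-10, 4.08e-12 and 2.03e-07), and VEGFB by 0.23, a call lost without TGFβ replicate 2 or Vehicle replicate 2. Of the 5 tested genes of the other class III receptors and their ligands, CSF1R was higher and KITLG, the ligand of the receptor KIT, lower by -1.21. Of 7 tested transcription factor genes known at PDGF promoters, 2 were higher and 3 lower. EGR1 averaged 20.8 ± 3.93 CPM with TGFβ and 8.29 ± 2.17 CPM with vehicle (SD, n = 3 each; log2 1.32, edgeR adjusted p = 0.000286), SRF was higher by 0.44, and KLF5, SP1 and SMAD3 were lower by -0.29, -0.24 and -0.29. The call of SMAD3 was lost without TGFβ replicate 3 or Vehicle replicate 1 or 2 (adjusted p up to 0.0799).

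In TGFβ + Aramchol against TGFβ, 4 of the 69 genes were called, all lower, where 2.25% of all tested genes were called; the count was 5 to 13 under the 9 other ways of fitting, with 7 in DESeq2. SPARC averaged 577 ± 82.4 CPM with TGFβ + Aramchol and 761 ± 89.4 CPM with TGFβ (SD, n = 3 each; log2 -0.40, edgeR adjusted p = 0.0356). LRP1 averaged 1370 ± 181 CPM with TGFβ + Aramchol and 1761 ± 164 CPM with TGFβ (log2 -0.36, adjusted p = 0.0471), and PGF 42.8 ± 5.41 CPM with TGFβ + Aramchol and 64.1 ± 5.22 CPM with TGFβ (log2 -0.58, adjusted p = 0.0356). The fourth was CSF1R, and VEGFA missed the threshold with a log2 change of -0.47 (adjusted p = 0.0654). Each of the 4 calls was lost without any of several libraries: 8 of the 12 for SPARC, 9 for LRP1, 7 for PGF and 5 for CSF1R. In Aramchol against vehicle edgeR called 0 of the 69 genes, where 0.357% of all tested genes were called. DESeq2 called 2 of them, where it called 396 over all genes. In edgeR 10 of the 69 had an unadjusted p under 0.05, and the share of all genes at that level is not given here.

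**Figure D5:**
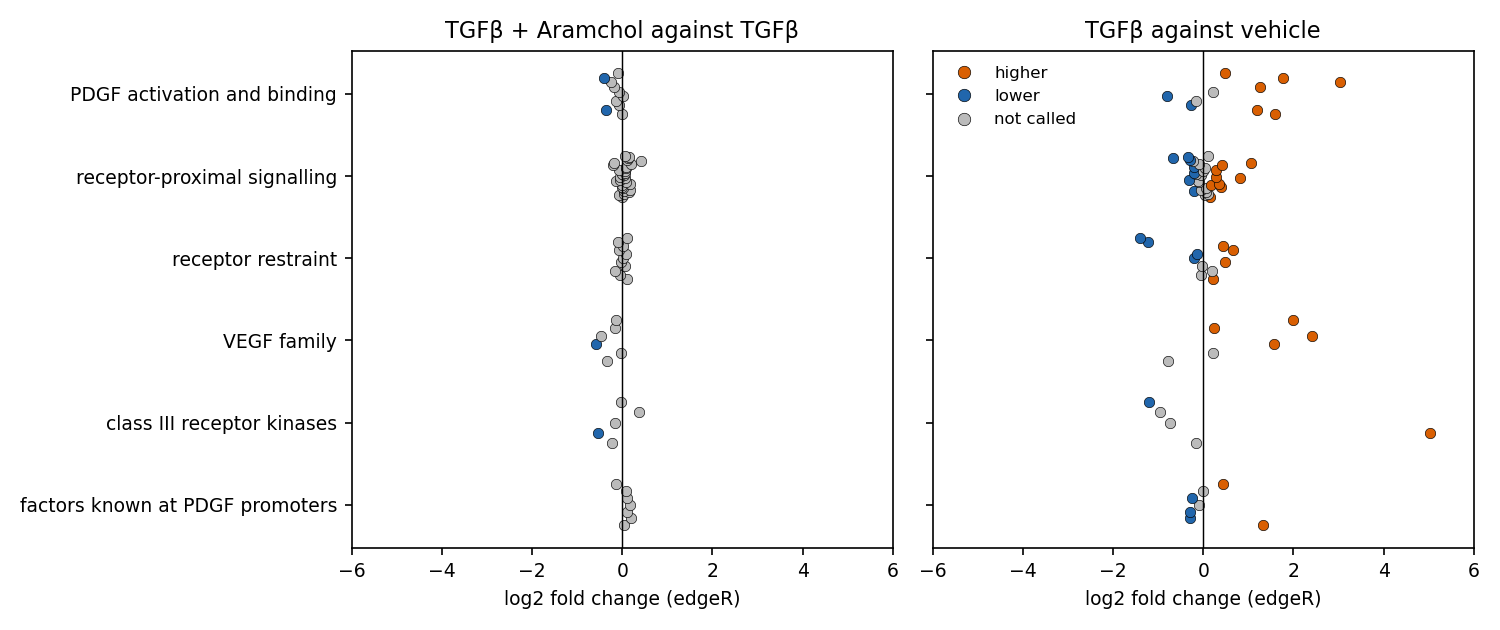
Log2 fold changes from edgeR of the 69 tested genes that act with or are related to the PDGF family, by list, for TGFβ + Aramchol against TGFβ (left) and TGFβ against vehicle (right). Each point is a gene; orange points were called higher and blue points lower at an adjusted p under 0.05. On the right 26 genes are orange and 17 blue, with CSF1R farthest out at 5.02, and on the left 4 are blue.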

How the data were processed

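Total RNA of 12 H69 libraries was sequenced. Per the submitters' processing notes, the authors aligned reads to GRCh38 with STAR 2.7.9a and assigned them to genes with featureCounts; the strand setting and the annotation release were not found in those notes, so that reads of antisense and overlapping genes cannot be told apart. The deposited values are whole read counts per gene. Of 62703 genes 20616 had no count. Genes passing filterByExpr (21567) were scaled by TMM, with factors of 0.930 to 1.09. The quasi-likelihood test of edgeR 4.0.16 (R 4.3.3) was fitted with 1 mean for each group, at a biological coefficient of variation of 8.90%; calls are at a Benjamini-Hochberg adjusted p under 0.05 over all tested genes. CPM uses TMM-scaled totals, and CPM per kb the gene length in the table. Alternatives were other scalings (RLE, upper quartile), filters, DESeq2 1.42.0, a replicate block, a term for or omission of the libraries numbered 3, only the groups compared, and each library left out. The fitting procedure was also run on simulated data with 1 spread for all genes and no shift of the libraries numbered 3. That run does not bear on calls that depend on those libraries. The 6 genes and all lists were chosen with earlier results of these data known. Named genes are the 6, up to 3 called members of each list with the smallest p, the 3 genes most like each member, and the nearest neighbours; a few others are named to complete a count. Some list members are not reported here by name. Same-numbered libraries are not stated to be paired. Promoters were matched by symbol to RefSeq sequences.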

Additional observations from a re-analysis of the deposited data

How the results depend on the processing

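With 9 other ways of fitting (8 for the interaction, where only the groups compared could not be run) and each of the 12 libraries left out in turn, the 5 tested genes kept their direction where they were called, and 604 of their values kept their side of the threshold, while 15 gained a call and 6 lost one. The 5 calls of TGFβ against vehicle and of TGFβ + Aramchol against vehicle stood in every one. For TGFβ + Aramchol against TGFβ the count of called PDGF genes was 1 and became 2, with PDGFB added, under a term for number 3, upper quartile scaling, no filter, DESeq2, the libraries numbered 1 and 2 alone and only the groups compared; leaving out libraries gave 0 to 2. For Aramchol against vehicle the count of 0 became 1 without a filter and 4 from the libraries numbered 1 and 2, and was 0 to 1 with libraries left out. Of the 69 related genes, the 0 called in Aramchol against vehicle became 2 with a term for number 3, 3 without a filter, 2 in DESeq2 and 6 from the libraries numbered 1 and 2, and 0 to 4 with libraries left out, with 4 without Vehicle replicate 3. The 4 called in TGFβ + Aramchol against TGFβ became 10, 9, 7 and 13 under these settings in that order and 9 from only the groups compared, and 0 to 9 with libraries left out. The 0 called in the interaction became 1, 4, 1 and 4. Over all genes, the calls in TGFβ + Aramchol against TGFβ numbered 486 and became 1683, 1278, 1045 and 1853 in the same order of settings. From only the groups compared they numbered 960. Those in Aramchol against vehicle numbered 77 and became 538, 531, 396 and 1544, with 611 without Vehicle replicate 3. Those in the interaction numbered 3 and became 31, 151, 30 and 191. The counts thus rose over all genes as well under these settings. The cause of these shifts was not tested. As shares of counts not divided by gene length, PDGFB took 59.8% with TGFβ + Aramchol, 64.3% with TGFβ, 20.2% with Aramchol and 22.3% with vehicle, PDGFC took 33.9%, 30.8%, 72.0% and 71.8% in the same groups, and PDGFA took 5.93% with vehicle; the shares move because the gene models differ in length.

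The labels do not state pairs, and the main fit had no term for replicate number. Of 18 same-number correlations of deviations from the group means, 7 were over 0.1 (range 0.00739 to 0.221). Every pair of libraries numbered 3 was among these, at 0.111 to 0.221. Each library numbered 3 correlated negatively with those numbered 1 and 2 in the other groups. Of the 12 libraries, 9 correlated best with their own number. With a replicate block, 2 PDGF genes were called in TGFβ + Aramchol against TGFβ, and of the related genes 9 in that comparison, 2 in Aramchol against vehicle and 1 in the interaction. Over all genes this fit called 1519, 464 and 23 in these comparisons, in that order. PDGFD, with 17 reads in all, could not be tested at this depth.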
